A study of Bos taurus with 32 samples.

Results

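The miR-148 and miR-152 family was represented on the bovine array by 3 miRNAs, bta-miR-148a, bta-miR-148b and bta-miR-152, which were taken by name among the spots that are not controls and held 60 of the 13440 miRNA spots of each array, 20 each. Fat was collected at slaughter from 16 yearling Hereford × Aberdeen Angus crossbred steers, 8 fed a barley-based control diet and 8 fed the same type of diet with flaxseed added to raise its fat content (high fat diet). Each steer gave subcutaneous fat from the back and visceral fat from around the kidney, so that 2 diets and 2 depots made 4 groups of 8 samples, and each sample was hybridized to 1 of the 32 Agilent arrays with a single dye. The samples were pieces of whole fat and not isolated adipocytes, and perirenal fat was the only visceral depot sampled.

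miRNAs are short RNAs that pair with messenger RNAs through a seed near their 5′ end and lower their translation or stability. The 3 members share a seed and therefore have largely overlapping predicted targets. The family is known for targeting DNA methyltransferases, and miR-148a also for targeting the LDL receptor and for promoting the differentiation of adipocytes. All 3 names matched a gene in the RefSeq annotation of the ARS-UCD2.0 assembly. There, MIR148B lies within the span of COPZ1 and MIR152 within the span of COPZ2, which encode zeta subunits of the COPI vesicle coat, while the span of no other gene holds MIR148A.

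The arrays of the high fat diet were brighter throughout. Summed over all miRNAs, array intensity ran from 26021 to 79290 (median 36984) for control samples and from 96888 to 366714 (median 200545) for high fat samples, a ratio of medians of 5.42, whereas the ratio was 0.847 for the labelling spike-ins. Feature Extraction called 115 to 176 miRNAs detected per control array and 169 to 259 per high fat array. Each group occupied its own slide and each diet its own scan day, so slide and group, and scan day and diet, cannot be told apart. Levels are given below as log2 of the intensity divided by the 75th percentile of the same array, taken over 91 miRNAs that each of the 32 arrays detected, with values under a floor of −7.22 set to it. On this scale the median difference between diets of those 91 miRNAs came to −0.91 for subcutaneous and −0.80 for visceral fat. The intensity of a probe depends on its sequence, so no level of one miRNA is compared with that of another.

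bta-miR-148a was far brighter in fat of the high fat diet in both depots. In subcutaneous fat it was detected on 7 of 8 control arrays and 8 of 8 high fat arrays, and in visceral fat on 6 of 8 and 8 of 8. Before scaling, its total intensity on the detected control arrays was 10.9 to 49.2 (median 22.8) in subcutaneous fat, against 715 to 1994 (median 1141) for high fat steers. In visceral fat the detected control arrays gave 7.56 to 60.2 (median 31.0) and the high fat arrays 285 to 2166 (median 648). The lowest high fat array was thus above the highest control array in each depot.

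**Figure D1:**
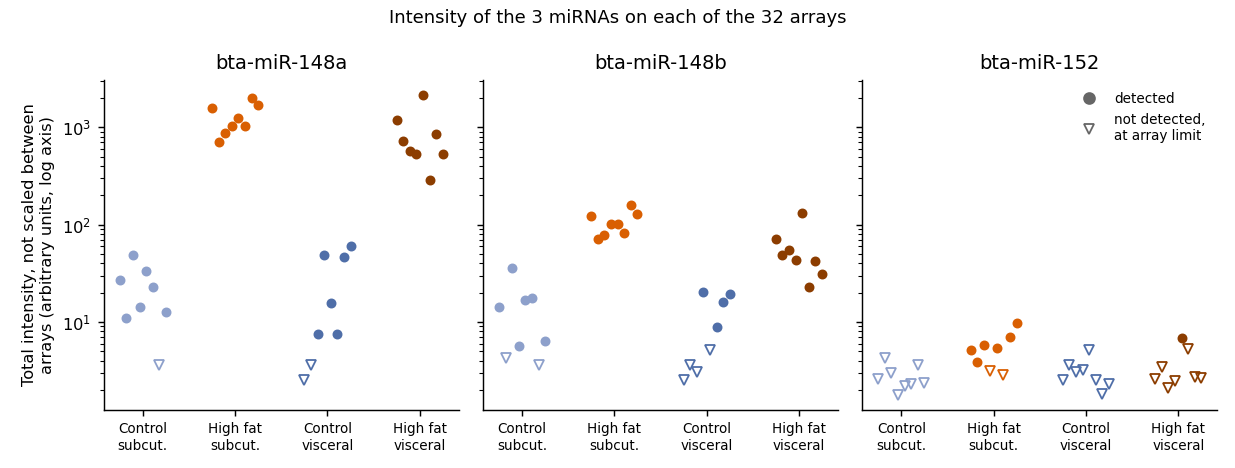
Total intensity (log axis, arbitrary units, not scaled between arrays) of bta-miR-148a, bta-miR-148b and bta-miR-152 on each of the 32 arrays by group, with filled circles for detected values and open triangles at the array's own detection limit for undetected ones. bta-miR-148a separated the diets in both depots, and bta-miR-152 was detected on 7 arrays, all of the high fat diet.

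After scaling, the level of bta-miR-148a in subcutaneous fat was −4.11 ± 1.37 (SD, n = 8) on the control diet and −0.60 ± 0.183 (n = 8) on the high fat diet. This difference of 3.51 (SE 0.605, 95% interval 2.27 to 4.74) was an 11.4-fold higher level with the high fat diet and passed the test (limma, adjusted p = 5.68e-06). In visceral fat the levels were −4.20 ± 2.03 and −0.46 ± 0.440 (SD, n = 8 each), and the difference of 3.74 (SE 0.605, interval 2.50 to 4.97), or 13.3-fold, passed as well (limma, adjusted p = 1.92e-06). These rises stood 15th and 11th from the highest among the 233 miRNAs tested, and 4.41 and 4.53 above the median of the 91 miRNAs detected everywhere. Of the 233, 41.6 percent were called higher and 34.3 percent lower with the high fat diet in subcutaneous fat, and 42.1 percent higher and 29.6 percent lower in visceral fat. Groups that did not overlap, the high fat one being higher, were found for 33 percent and 28.3 percent. In whole fat, a change in the cells that hold a miRNA and a change of its amount per cell cannot be told apart.

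The share of calls in each direction depended on the scaling. As reported, 97 miRNAs were called higher and 80 lower in subcutaneous fat, with 98 and 69 for visceral fat, but the numbers were 216 and 1, and 181 and 1, after scaling to the labelling spike-ins, and 23 and 203, and 26 and 198, after normexp background correction. The normexp correction included an added offset of 50 on each spot, which shrinks the log2 differences of dim miRNAs before scaling. The rise of bta-miR-148a passed the test under all of these scalings and corrections. The exception was a percentile taken over all miRNAs of the array, where the difference was −0.27 in subcutaneous and 0.10 in visceral fat (limma, adjusted p = 0.855 and 0.935). On 15 arrays, all of the control diet, that percentile fell on the value given to undetected miRNAs.

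The size of the rise also rested on how undetected arrays were treated. bta-miR-148a was undetected in subcutaneous fat of control steer 405, the array with the fewest detected miRNAs in its group (118), and in visceral fat of control steers 108 and 111, whose arrays had 126 and 115. With these arrays at their own detection limit in place of the floor, the log2 difference was 3.23 in subcutaneous fat, or 9.39-fold. In visceral fat it was 3.32, or 9.997-fold. That limit is the lowest intensity called detected on the array for any miRNA, so these folds are not bounds. In control visceral fat the lowest intensity of probe A_38_P00001489 was 3.82, above the limits of steers 108 and 111, 2.51 and 3.62. Among detected control arrays alone, the scaled level ran from −4.69 to −3.09 in subcutaneous and from −4.47 to −2.32 in visceral fat, below the high fat ranges of −0.89 to −0.39 and −1.14 to 0.10. Both probes for bta-miR-148a carried the difference. The total intensity of probe A_38_P00001488, 1 value per array, had a median of 6.72 on control and 412.5 on high fat arrays of subcutaneous fat. In visceral fat the medians were 4.55 and 236.6. For probe A_38_P00001489 the medians were 11.9 and 732 for subcutaneous and 8.98 and 411 for visceral fat.

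**Figure D2:**
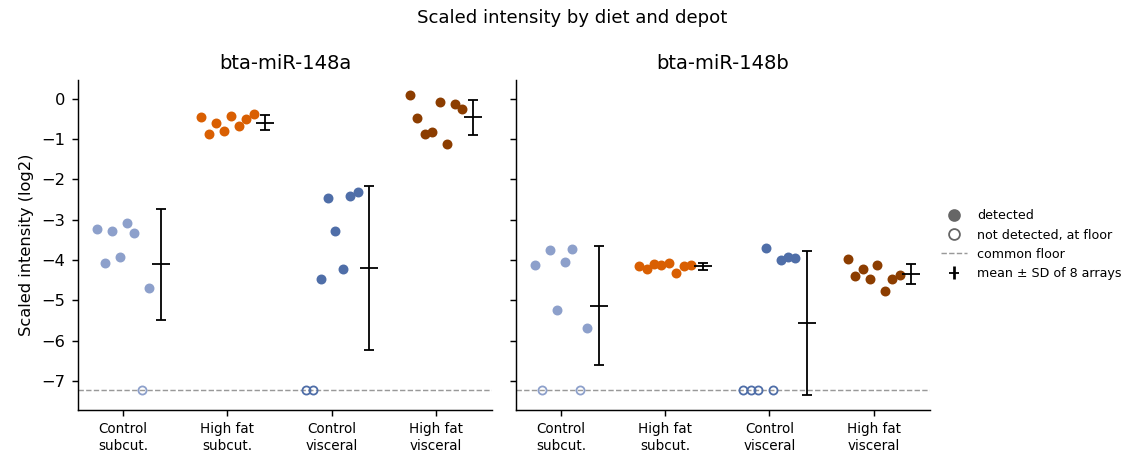
Scaled intensity (log2) of bta-miR-148a and bta-miR-148b per array by diet and depot, with the mean ± SD of the 8 arrays of a group beside the points and undetected arrays drawn open at the floor of −7.22. For bta-miR-148a the high fat arrays lay above every control array, while for bta-miR-148b they lay within the range of the control arrays.

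bta-miR-148b was detected on all 16 high fat arrays and on fewer control arrays, 6 of 8 in subcutaneous and 4 of 8 in visceral fat. Its unscaled intensity on detected control arrays of subcutaneous fat was 5.71 to 35.6 (median 15.6), and 70.4 to 157.6 (median 101.6) for high fat steers. In visceral fat it was 8.89 to 20.5 (median 17.7) and 22.9 to 130.6 (median 45.9). The unscaled values of the diets did not overlap, whereas the scaled ones did. Without scaling, 206 of 240 miRNAs were called higher in subcutaneous and 165 in visceral fat, so most miRNAs shared the unscaled rise.

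In subcutaneous fat the scaled level of bta-miR-148b was −5.13 ± 1.47 in control and −4.16 ± 0.0825 in high fat steers (SD, n = 8 each), and the difference of 0.97 (SE 0.562, interval −0.18 to 2.12) did not pass the test (limma, adjusted p = 0.117). In visceral fat the levels were −5.56 ± 1.78 and −4.35 ± 0.242 (SD, n = 8 each), and the difference of 1.21 (interval 0.07 to 2.36) did not pass either (limma, adjusted p = 0.0536). The detected control arrays of subcutaneous fat, −5.68 to −3.72, spanned all high fat arrays, −4.33 to −4.08. Of the 4 detected control arrays of visceral fat, −4.00 to −3.71, 3 lay above all high fat arrays, −4.77 to −3.97, and steer 308 lay within their range. The differences were 1.87 and 2.01 above the median of the 91 miRNAs, and ranked 80th and 73rd of 233.

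The wide spread on the control diet included the undetected arrays, those of steers 111 and 405 in subcutaneous fat and steers 108, 111, 209 and 307 in visceral fat, which had 115 to 131 detected miRNAs. With those arrays at their own detection limits, the differences were 0.47 and 0.33. The visceral difference passed the test when the control array of steer 211, 308, 405 or 410 was left out, with values of 1.48, 1.44, 1.45 and 1.44 (limma, adjusted p = 0.0202 to 0.0261), these being the 4 control arrays on which the miRNA was detected. The direction of bta-miR-148b depended on the processing, and normexp was the only setting where a lower level passed the threshold. With the percentile over all miRNAs it was lower by −2.35 and −1.57, which did not pass. It was higher in high fat steers by 3.72 and 3.37 with the spike-ins (limma, adjusted p = 1.99e-08 and 1.65e-07). It was lower, by −1.58 and −1.38, with normexp (limma, adjusted p = 9.57e-14 and 1.40e-11). With normexp and its offset, the median difference of the 91 miRNAs was itself −1.27 and −1.20. Most of its signal came from 1 of its 2 probes. Probe A_38_P00001491 had a median total intensity of 10.4 on control and 91.4 on high fat arrays of subcutaneous fat, and of 5.73 and 45.3 in visceral fat. Probe A_38_P00001490 had medians of 0.663 and 10.2, and of 0.668 and 4.70, and alone was under the floor on all high fat arrays once scaled.

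**Figure D3:**
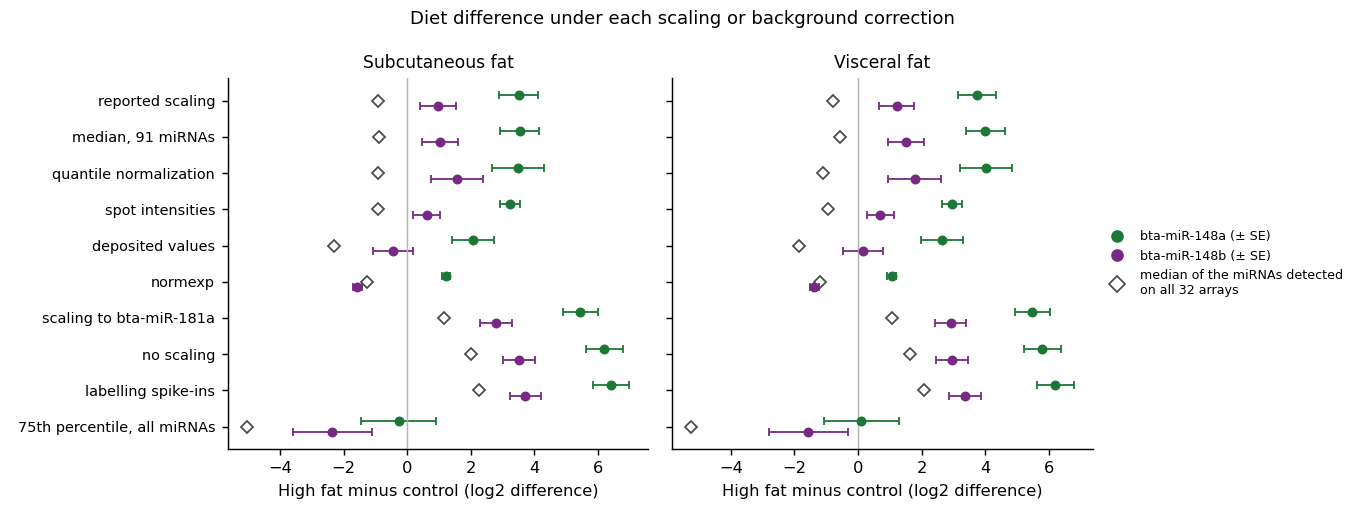
Difference between the diets (high fat minus control, log2, ± SE of the limma fit) of bta-miR-148a and bta-miR-148b in each depot under the reported scaling and 9 other scalings or background corrections, with open diamonds for the median over the miRNAs detected on all 32 arrays. bta-miR-148a was right of 0 except in subcutaneous fat with the 75th percentile over all miRNAs, bta-miR-148b lay on both sides of 0, and the medians moved from −5.05 to 2.26 in subcutaneous and from −5.24 to 2.08 in visceral fat.

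bta-miR-152 was near the detection limit. It was detected on 0 of 8 control arrays in each depot, on 6 of 8 high fat arrays of subcutaneous fat and on 1 of 8 of visceral fat. The detected intensities in subcutaneous fat were 3.87 to 9.87 (median 5.64), with steers 204 and 303 undetected, and the single visceral array, that of steer 302, read 6.77. Steer 302's visceral array also had the most detected miRNAs of its diet, 259. The lowest intensity called detected for any miRNA was 1.79 to 5.11 on the control arrays. Scaled, the detected values of bta-miR-152 were −8.72 to −7.81, below the detection limits of the control arrays, −7.34 to −5.00 in subcutaneous and −7.06 to −4.91 in visceral fat. A scaled level of this size was thus lower than any called detected on the control arrays, and no fold is given. Being detected on 7 arrays and under the floor on all 32, the miRNA was not tested. Its signal came from probe A_38_P00015264, with a median total intensity of 5.33 on the high fat arrays of subcutaneous fat and 1.51 on those of visceral fat, and 0.187 and −0.388 on the control arrays.

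bta-miR-148a and bta-miR-148b were next compared within each array, which removes any scaling between arrays. The log2 intensity of bta-miR-148a minus that of bta-miR-148b was 0.38 to 1.33 (median 0.94) on the 6 control arrays of subcutaneous fat that detected both, and 3.32 to 3.73 (median 3.64) on the 8 high fat arrays. In visceral fat it was −0.23 to 1.64 (median 1.39) on 4 control arrays and 3.37 to 4.33 (median 3.98) on 8 high fat arrays. The diets did not overlap in either depot. The means differed by 2.73 in subcutaneous and 2.84 in visceral fat, and since some control arrays lacked a value no test was made. From spot intensities, which give a value on every array, the control arrays ran from 0.20 to 2.53 and from 0.24 to 3.55, and the high fat arrays from 3.34 to 3.77 and from 3.41 to 4.18, so that the visceral groups then overlapped. These values show an unequal difference between diets for the pair, and do not show that either miRNA was the same on both diets.

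**Figure D4:**
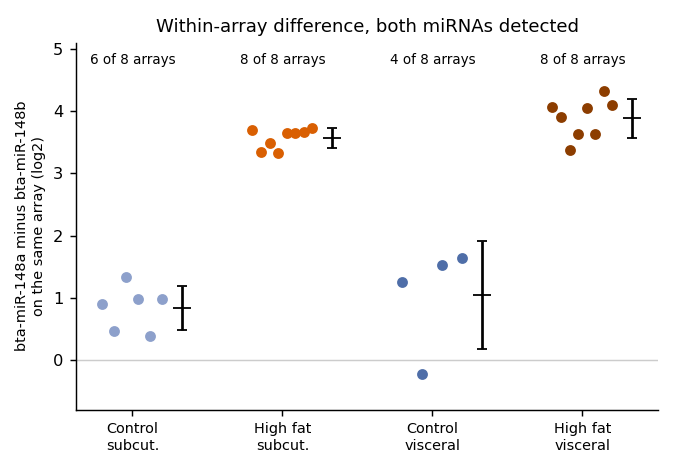
log2 intensity of bta-miR-148a minus that of bta-miR-148b on the same array, for the arrays that detected both (the number of 8 is printed above each group), with the mean ± SD beside the points. All high fat arrays lay at 3.32 or higher and all control arrays at 1.64 or lower.

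Between depots, neither miRNA passed the test on either diet. bta-miR-148a in visceral minus subcutaneous fat was −0.10 on the control diet (interval −1.33 to 1.14; limma, adjusted p = 1) and 0.13 on the high fat diet (interval −1.10 to 1.37; limma, adjusted p = 0.913). For bta-miR-148b the differences were −0.43 (interval −1.58 to 0.71; limma, adjusted p = 0.749) and −0.19 (interval −1.33 to 0.96; limma, adjusted p = 0.876). Of all 233 miRNAs, 18.9 percent were called in control steers and 26.2 percent in high fat steers. The intervals leave room for differences of more than 2-fold either way, apart from a rise of bta-miR-148b. They rest on 1 spread shared by all 4 groups. The SD was 1.37 to 2.03 in the control groups and 0.0825 to 0.440 in the high fat groups. For the high fat diet the intervals are therefore wider than its own arrays would give, and the differences by steer follow below. The signs of these small differences also changed with the processing for both miRNAs. In order of mean level, bta-miR-148a ran from high fat visceral through high fat subcutaneous and control subcutaneous to control visceral fat. Only the middle step, between the diets, exceeded the spread of the arrays. For bta-miR-148b, with high fat subcutaneous fat highest, no step did.

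Paired by steer on the high fat diet, bta-miR-148a was higher in visceral fat in 5 of 8 steers, with differences from −0.45 to 0.56 (median 0.24). bta-miR-148b was lower in visceral fat in 7 of 8 steers, from −0.44 to 0.19 (median −0.21), steer 103 being the exception. On the control diet 5 steers had bta-miR-148a detected in both depots, with differences from −1.19 to 2.37, and 3 steers had bta-miR-148b, with differences from −0.28 to 1.72. The control differences thus scattered far more widely than those of the high fat diet.

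**Figure D5:**
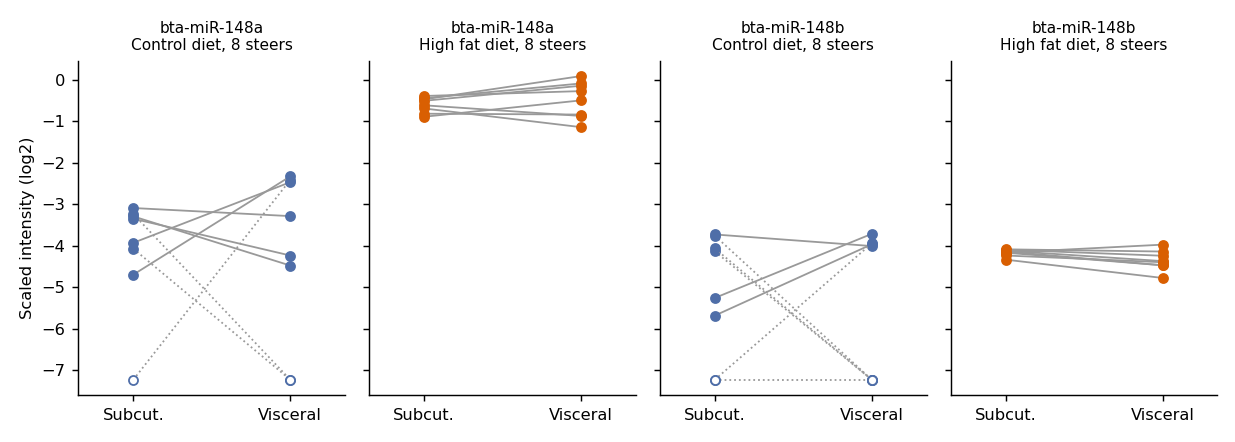
Scaled intensity (log2) of bta-miR-148a and bta-miR-148b in subcutaneous and visceral fat of each steer, joined by a line, by diet, with undetected values drawn open at the floor and joined by dotted lines. On the high fat diet the lines were nearly level, between −0.45 and 0.56 for bta-miR-148a and between −0.44 and 0.19 for bta-miR-148b, while on the control diet they crossed.

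The within-array difference between the miRNAs could be tested between depots on the high fat diet. It was 3.56 ± 0.161 in subcutaneous and 3.88 ± 0.315 in visceral fat (SD, n = 8 each), higher by 0.32 in visceral fat (two-sided exact permutation test, p = 0.0244, where the smallest possible is 0.000155), and it was higher in 6 of 8 steers. After normexp the difference was −0.27 (two-sided exact permutation test, p = 0.272), so that its direction depended on the background correction. The diet difference itself did not differ between depots past the threshold. Visceral minus subcutaneous, it was 0.23 for bta-miR-148a (interval −1.52 to 1.98; limma, adjusted p = 0.958) and 0.25 for bta-miR-148b (interval −1.38 to 1.87; limma, adjusted p = 0.954), where 1.72 percent of the 233 miRNAs were called.

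Other miRNAs known to act on adipocyte differentiation were examined beside bta-miR-148a. Of 19 tested miRNAs of a list of 21 that promote it, 15 rose and 2 fell with the high fat diet in subcutaneous fat, and 16 rose and 1 fell in visceral fat. Over all 233, 41.6 and 34.3 percent were called higher and lower in the first depot and 42.1 and 29.6 percent in the second. The medians of the list were 1.25 and 1.41, against 0.0987 and 0.171 over all 233, and with undetected arrays at their own limits 1.25 and 1.27, against −0.46 and −0.79. The largest rise was that of bta-miR-19b, which is transcribed in a cluster with miR-17, by 5.17 and 4.68 (limma, adjusted p = 3.10e-11 and 2.81e-10), and it was higher under all 10 scalings and corrections. It was detected on 5 of 8 control arrays in each depot, and with the others at their own limits the differences were 4.65 and 3.97. bta-miR-19a of the same cluster was detected on 0 of 8 control arrays and on all 8 high fat ones, whichever the depot. With the control arrays at their own limits it was 10.6-fold and 8.21-fold higher with the high fat diet. Every control value in these folds is such a limit, so the folds are neither measured sizes nor bounds. With normexp bta-miR-19a was lower, by −0.54 and −0.48. bta-miR-92 fell by 1.73 and 1.98 and was higher under 3 of the 10 in subcutaneous and 2 in visceral fat. bta-miR-378, which lies within a gene of a PPAR coactivator, fell by 0.64 in subcutaneous fat and was higher under 3 of the 10.

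Of 15 tested miRNAs of a list of 16 that inhibit differentiation, 5 rose and 7 fell in subcutaneous fat, and 4 rose and 7 fell in visceral fat, to be read beside the shares of all 233 just given, with medians of −0.34 and −0.31, or −0.34 and −1.53 with undetected arrays at their own limits. bta-miR-27a-3p, which targets the adipogenic regulator PPARG, rose by 3.53 and 4.18, and bta-miR-130a, which targets it too, by 3.02 and 3.66. They were undetected on 1 to 4 of the 8 control arrays of a depot, and with those at their own limits the differences were 3.25 and 3.29, and 2.75 and 3.07. Both were lower with the percentile over all miRNAs in subcutaneous fat, by −0.25 and −0.75. bta-let-7b differed by −2.75 and −3.12 and bta-let-7c by −2.63 and −2.89, and both were higher under 2 of the 10 in subcutaneous fat and under 0 in visceral fat. The counts of these lists moved with the scaling as those of all miRNAs did. In subcutaneous fat from 4 to 19 of the promoting and from 1 to 14 of the inhibiting miRNAs were called higher, and in visceral fat from 2 to 19 and from 0 to 13.

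Between depots, 2 promoting miRNAs were higher and 1 lower in visceral fat of control steers, and 3 and 3 in that of high fat steers. Over all 233, the shares called higher and lower were 6.87 and 12 percent for control and 11.6 and 14.6 percent for high fat steers. bta-miR-378 was higher in visceral fat by 0.89 and 1.49 (limma, adjusted p = 0.000400 and 1.24e-07) and bta-miR-204 lower by −1.47 and −0.998 (limma, adjusted p = 0.00010 and 0.00338). Of the inhibiting miRNAs, 2 were higher and 1 lower in control steers, and 1 higher and 3 lower in high fat steers, among the latter bta-miR-130b. It was at the floor on all high fat visceral arrays, 4 of which detected it, and its difference was −1.02 with the floor and −1.59 with undetected arrays at their own limits (limma, adjusted p = 2.09e-07 and 0.000544), but 0.46 with normexp.

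No miRNA marks adipocytes alone, so the tissue label could be checked only for other cell types. The endothelial bta-miR-126 and bta-miR-126* both rose on the high fat diet in each depot. Of all 233 miRNAs, 41.6 percent were called higher in subcutaneous and 42.1 percent in visceral fat. Control arrays detected 1 or 2 of the 2, and high fat arrays both. Their summed scaled level was 0.578 to 1.50 on control and 3.57 to 4.84 on high fat arrays of subcutaneous fat, and 0.863 to 2.42 and 5.09 to 8.23 in visceral fat. bta-miR-126 was lower with the percentile over all miRNAs and bta-miR-126* with normexp. The summed level of 3 red blood cell miRNAs was 0.109 to 0.198 and 0.0690 to 0.135 in subcutaneous fat, and 0.191 to 0.368 and 0.0674 to 0.134 in visceral fat, with bta-miR-144 detected in high fat subcutaneous fat alone. Its members went opposite ways, bta-miR-451 rising by 2.88 and 2.65 with the high fat diet and bta-miR-486 differing by −2.61 and −2.56 (limma, adjusted p = 4.78e-10 and 3.02e-09, and 8.33e-16 and 1.45e-15). bta-miR-451 was lower with normexp, and bta-miR-486 higher with the spike-ins. That of 4 muscle miRNAs was 0 to 0.0291 and 0.0178 to 0.228, and 0 to 0.133 and 0.0475 to 0.0912, with bta-miR-1 and bta-miR-133a undetected in control subcutaneous fat and bta-miR-206 in high fat visceral fat. That of 6 immune cell miRNAs was 0.164 to 0.455 and 0.227 to 1.01, and 0.174 to 0.404 and 0.213 to 0.340, with bta-miR-146a undetected in every group and bta-miR-142, bta-miR-146b and bta-miR-150 undetected in both control groups. Of the 4 immune cell miRNAs tested, 1 rose and 1 fell in subcutaneous fat, and 2 rose and 2 fell in visceral fat. Over all 233, 34.3 and 29.6 percent were called lower. With control arrays at the floor, bta-miR-142 rose by 4.24 and 4.09 (limma, adjusted p = 6.17e-26 and 1.87e-25). bta-miR-155 differed by −1.24 and −1.57 (limma, adjusted p = 8.82e-06 and 1.77e-07). The part of these cell types in the difference of bta-miR-148a was not tested.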

How the data were processed

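Per the labels, each of the 32 samples was total RNA from subcutaneous or visceral fat of a steer on the control or high fat diet. The authors labelled it with Cy3, hybridized it to an Agilent miRNA array, scanned it and extracted it with Feature Extraction 10.7.3.1. Deposited were intensities per spot and, per miRNA, a background-subtracted intensity summed over probes, unscaled between arrays, with a detection call and 0.1 for an undetected miRNA. A further table that the authors deposited holds their normalized log2 values (75th percentile, GeneSpring). It lists feature numbers only, and 244 of its 244 features with a value above 0 were matched to a miRNA by value within 0.0001.

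Intensities were divided by the array's 75th percentile over the 91 miRNAs detected on all 32 arrays, and log2 values under −7.22, the lowest detected scaled value of an array (median of 32 arrays), were set to it. At least 8 arrays detected 240 miRNAs, of which 233 were above this floor on some array and were tested with limma 3.58.1 in R 4.3.3 (lmFit and eBayes on all 4 groups together, two-sided, Benjamini-Hochberg over all 233, threshold 0.05). The methods' test, other scalings, floors, filters, blocks and each probe were alternatives, as were undetected arrays at their own detection limit and leaving out each array, which were added after seeing the data. The fit was tested on simulated data. The detection limit of an array is the lowest intensity called detected on it for any miRNA. It need not exceed the signal of a given undetected miRNA, so differences at these limits are not bounds.

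Depots of a steer were paired because the labels give the steer. Deviations from the group means correlated between a steer's depots from −0.39 to 0.65 (median −0.06), above 0.1 in 5 of 16 steers.

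The members and lists were chosen with earlier results of these data known. Named were the 3 members, the reference bta-miR-181a, the miRNAs most like a member, and of each list those with the largest changes past the threshold, up to 2 in each direction. The number of arrays limits the precision. PCR measurements were not analysed here. Figures were drawn with matplotlib 3.10.9.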

Additional observations from a re-analysis of the deposited data

Results flagged for a closer look

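The 4 groups were checked for a sample far from the others in 3 measures, the scaled levels of bta-miR-148a and bta-miR-148b and their difference within an array. Of these 12 sets of 4 to 8 values, 1 had such a sample, where chance gives about 1 in 20. It was bta-miR-148a in control subcutaneous fat, where steer 405 lay at −7.22 (log2, scaled), the floor for undetected values. Its gap to the next array was 0.612 of the group's range, above the critical value of 0.526 for 8 samples. The floor is not a measured level, so this gap depends on the floor chosen. The next lowest level was −4.69, and the detection limit of steer 405's own array was −5.00. That array had 118 detected miRNAs, the fewest of its group. Without it the diet difference of bta-miR-148a in subcutaneous fat was 3.06.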

How the results depend on the processing

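Across 279 alternatives over 26 results of the 3 miRNAs, 231 were counted as unchanged. Of these, 198 were results of the fit and left direction and side of the threshold as reported. The rest were counts of detected arrays and within-array differences, which were not fitted. bta-miR-148a was higher on the high fat diet and past the threshold in 32 of 33 alternatives in each depot, from 1.06 to 6.42. With the 75th percentile over all miRNAs of the array, its differences were −0.27 and 0.10 in subcutaneous and visceral fat, and those of bta-miR-148b −2.35 and −1.57. bta-miR-148b passed the test in both depots with no scaling (3.52 and 2.95), the spike-ins (3.72 and 3.37) and bta-miR-181a (2.81 and 2.91), and in visceral fat with the median over the 91 miRNAs (1.50) and a floor at an intensity of 1 (1.22). It turned negative with normexp, past the threshold in both depots (−1.58 and −1.38), with its probe A_38_P00001490 alone (−0.017 and −0.0069) and, in subcutaneous fat, with the deposited values (−0.44). Leaving out each array gave 3.06 to 3.65 and 3.31 to 4.01 for bta-miR-148a, and 0.67 to 1.17 and 0.98 to 1.48 for bta-miR-148b.

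Differences between depots, none past the threshold as reported, changed sign as follows. For bta-miR-148a on the control diet they became 0.39 with spot intensities, 0.26 with normexp, 0.23 and 0.50 with either probe, 0.043 with each undetected array at its limit, and 0.029 without control subcutaneous steer 108. On the high fat diet they became −0.73 with no scaling, −0.38 with the spike-ins and −0.12 with bta-miR-181a. For bta-miR-148b they became 0.17 (control) and 0.37 (high fat) with normexp, the latter past the threshold (limma, adjusted p = 0.0141), and 0.0014 on the high fat diet with the median over the 91 miRNAs. The difference between depots in the diet effect became −0.41 and −0.57 with no scaling, −0.20 and −0.35 with the spike-ins, for bta-miR-148a −0.28 with spot intensities, −0.16 with normexp and −0.051 and −0.39 with either probe, and for bta-miR-148b −0.14 with undetected arrays at their own limit. The within-array difference between depots became −0.27 with normexp. The cause of these changes was not tested, except that the percentile over all miRNAs falls on undetected values on 15 control arrays. The deposited values lay 2.67 to 5.05 below the unscaled log2 intensities on high fat arrays. On control arrays this shift was 0, except for subcutaneous steer 209 (2.46) and visceral steer 410 (1.88). With the deposited values the median diet difference of the 91 miRNAs was −2.30 and −1.86. The part of this shift in the results was not tested. With the steer as replicate block, the depot differences kept their values and no call of the family changed (limma, adjusted p = 0.799 to 1 over both miRNAs and diets), the within-array difference of 0.32 had an exact sign-flip p of 0.03125, and calls over all miRNAs went from 44 to 37, from 61 to 47 and from 4 to 3.

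bta-miR-152 was counted on 0 high fat arrays of either depot by a deposited value above 0, and on 1, 1 and 2 arrays of control subcutaneous, control visceral and high fat visceral fat by at least 1 spot well above background. Over the scalings, calls between depots ran from 9 to 44 of all miRNAs in control steers and from 9 to 191 in high fat steers, and from 3 to 27 for the difference in the diet effect. With no filter bta-miR-152 gave no value, since it lay at the floor on all arrays, and no member could be fitted among the miRNAs detected on all 32 arrays. The detection limits of the dimmer control arrays bound what can be said of bta-miR-148b and bta-miR-152 there.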

Other observations

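No member was detected on all 32 arrays, so the rule for naming the most similar miRNAs named none. A narrower comparison, chosen after the values were seen, used the 16 high fat arrays and the 158 other miRNAs detected on all of them. Across these arrays, which share 2 slides and whose brightness differs, the scaled level of bta-miR-148a followed bta-miR-29c (Pearson r = 0.87), bta-miR-374a (0.81) and bta-miR-106b (0.79) most closely. bta-miR-148b followed bta-miR-411 (0.86), bta-miR-660 (0.86) and bta-miR-324 (0.85). After the group means were removed, these correlations were 0.80 to 0.86. With each other, the family members correlated at 0.49, and at 0.69 after that step, and each stood only 23rd and 21st in the other's order.

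bta-miR-181a, the reference of the PCR measurements, had a scaled level that fell by 2.01 (subcutaneous) and fell by 1.88 (visceral) in high fat steers (limma, adjusted p = 2.31e-13 and 1.42e-12), whereas it was higher under 2 of 9 settings, by 1.16 and 0.997 with the spike-ins. Relative to the reported scaling, scaling to it raised the diet differences. bta-miR-148a was then higher by 5.44 and 5.48.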
